A study of Mus musculus with 14 samples.

Results

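The genes described here are 39 interferon response genes, a named list of transcripts that cells make after interferon binds its receptor, out of 28929 genes counted in the retina or the brain. They were sorted by function into 7 role groups: 5 sensors of foreign nucleic acid, 5 transcription factors, 7 IFIT, OAS and Mx effectors, 10 other antiviral effectors, 4 genes of the ISG15 system, 3 of ADP-ribosylation and 5 interferon-inducible GTPases. In the retina 36 of the 39 were compared. Igtp is not in the retinal gene table, and Mx1 and Mx2 were counted in only 1 of 3 labelled batches. In the brain 37 were compared, since Mx1 and Mx2 are not in that table.

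The series profiled nuclei from mice whose vascular endothelial cells lack the TGF-beta receptor Tgfbr1. The CKO mice carried Cdh5CreER (VEcadCreER in the series text), 1 floxed and 1 null Tgfbr1 allele, and received 4-hydroxytamoxifen (4HT) between postnatal days 3 and 5. Tissue was taken at postnatal day 14, although the deposited description says young adult. Whole retinas gave 1 control and 11 CKO libraries, and enriched brain vascular fragments, pooled from 2 brains for each library, gave 1 control and 1 CKO library.

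The control libraries are labelled wild type. Controls elsewhere in the study are phenotypically wild type and typically carry the same Cre with 1 floxed and 1 wild-type allele, and whether these 2 libraries' mice did, or received 4HT, is not stated. Cdh5CreER acts in endothelial cells, so in the other cells of a CKO mouse the floxed copy stays whole while the second copy is null. Since the retinal comparison has 1 control library, each retinal result rests on that library, and how far control retinas vary cannot be read from these data.

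The retinal control held 11513 nuclei with a median of 1595 UMIs (unique molecular identifiers, each 1 counted transcript), and the CKO libraries held 104 to 18862 nuclei with medians from 613 to 4041 UMIs. CKO 4 stands apart with 104 nuclei, 65 of them labelled immune, and 365 CPM of Tgfbr1 (UMIs of the gene per 1000000 UMIs of all genes) against 71.4 to 87.0 in the other CKO libraries and 89.0 in the control. The brain libraries held 16649 control and 14675 CKO nuclei with medians of 1541 and 1395 UMIs, and 36.5 and 26.2 CPM of Tgfbr1. No pair of libraries in the same tissue shared more than 2 cell barcodes.

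Marker genes were looked up under the deposited cell type labels. Nuclei labelled immune were highest among retinal types for 10 of 10 microglial markers, rods for 8 of 8 rod markers, and brain endothelial cells (ECs) for 9 of 9 endothelial markers. Müller glia had the highest summed level of the Müller list, with 6 of its 10 genes highest there. The retina has no endothelial label. Rod transcripts were present in the Müller glial sums of both genotypes, at 5041 CPM for the 8 rod markers in the control and 3464 to 5891 CPM in the CKO libraries.

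Interferons signal through cell surface receptors and JAK kinases to transcription factors, which enter the nucleus and switch on a shared set of antiviral genes. Most of these genes are made at a low level at rest. In the central nervous system they are known from microglia, astrocytes and endothelial cells responding to infection, inflammation or blood-borne signals.

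The summed level of the interferon response genes was highest in immune nuclei, vascular cells and several glial types. Over all retinal libraries pooled it was 881 CPM in immune nuclei, 739 CPM in astrocytes and 385 CPM in Müller glia, and between 60.2 and 125 CPM in the 8 neuronal types. These pools hold both genotypes. In the control library alone astrocytes (192 CPM, from 6 UMIs) lay below Müller glia (247 CPM), and immune nuclei held 428 CPM. In the brain, with both libraries pooled, the summed level was 2686 CPM in nuclei labelled microglia and 1112 CPM in ECs. It was 830 CPM in vascular smooth muscle cells (vSMCs) and 816 CPM in pericytes, and lower in oligodendrocytes (141 CPM) than in the neurons labelled Glut_5 (157 CPM). This order does not hold in each library. In the CKO library the 11 nuclei labelled microglia lay below ECs, vSMCs and pericytes, and oligodendrocytes also differed between libraries, with values given below. Which genes made up the sum differed by type. Stat2, a constitutive part of the interferon-activated transcription complex, supplied 2269 of 4969 UMIs in rods, whereas Irf8, a transcription factor of myeloid cells, led in immune nuclei with 467 of 2348 UMIs. In Müller glia the leading genes were Ddx60, an antiviral helicase, with 951 of 5521 UMIs, Herc6 with 533 and Stat2 with 460.

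In Müller glia every CKO library lay above the control in the summed level. The control held 247 CPM (222 to 273, 95% counting interval, which here and below covers counting error alone) from 402 nuclei. The 10 CKO libraries with at least 10 nuclei held 322 CPM at the lowest (CKO 6), 370 CPM at the median and 525 CPM at the highest (CKO 1). Groups did not overlap, and all 10 intervals lay above that of the control. Pooled CKO libraries held 1.63 times the control (1.46 to 1.81). The 3 CKO libraries with the same batch label as the control held 525, 328 and 361 CPM.

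Astrocytes and immune nuclei showed the same order of groups from far fewer control nuclei. Control astrocytes held 192 CPM (70.4 to 418) from 6 UMIs in 12 nuclei, and 8 CKO libraries held 195 CPM at the lowest, 680 CPM at the median and 1238 CPM at the highest, with 4 of 8 intervals clear of the control. The pooled ratio was 4.07 (1.86 to 11.1). Without the 3 members with most UMIs, 7 of 8 CKO libraries lay above the control, with the lowest at 156 CPM against 160 CPM. Control immune nuclei held 428 CPM (317 to 566) from 49 UMIs in 29 nuclei, and 11 CKO libraries held 496 CPM (CKO 8), 814 CPM and 1906 CPM (CKO 4) at the lowest, median and highest. Every CKO library was above the control, 7 of 11 with a separate interval, and the pooled ratio was 2.10 (1.59 to 2.85). Without CKO 4 the highest was 1163 CPM and the ratio 2.06 (1.56 to 2.80).

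Pooled ratios were lower in the neuronal types than in these 3. Glycinergic amacrine cells held 54.0 CPM in the control and 68.1, 76.6 and 92.0 CPM at the lowest, median and highest of 10 CKO libraries, a pooled ratio of 1.43 (1.23 to 1.67). Cone bipolar cells held 76.5 CPM against 82.7 to 106 CPM, with 10 of 10 above and a pooled ratio of 1.21 (1.09 to 1.34). Horizontal cells (1.33, 1.04 to 1.72, 10 of 10 above), ganglion cells (1.25, 1.08 to 1.46, 10 of 11) and cones (1.15, 0.925 to 1.44, 10 of 10) also lay mostly above the control. GABAergic amacrine cells had a ratio of 1.10 (0.993 to 1.22) with 8 of 10 above. Rods held 76.1 CPM in the control against 57.2, 76.1 and 91.5 CPM, with 5 of 10 CKO libraries above and a ratio of 0.992 (0.913 to 1.08). Rod bipolar cells held 59.3 CPM against 39.6 to 69.4 CPM. In both types the control lay inside the CKO range, and Stat2 and Trim25 led the sum.

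**Figure D1:**
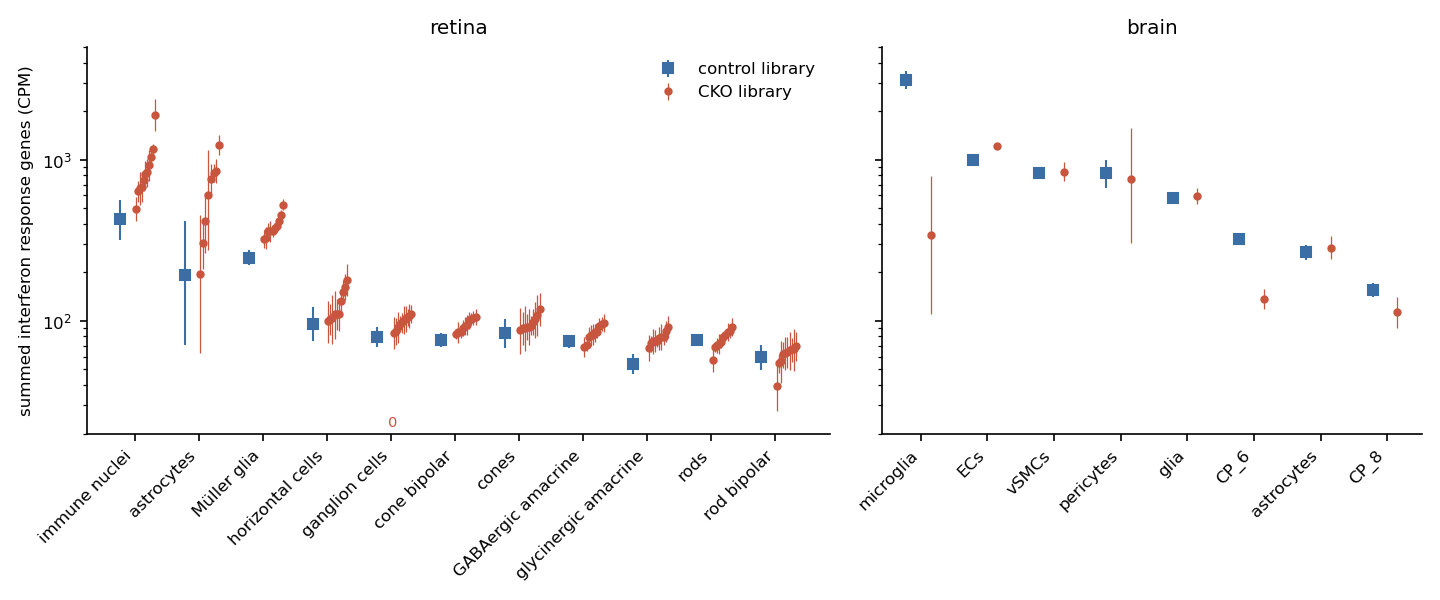
Summed level of the interferon response genes in each cell type, as CPM of that type on a log scale, for retina (left, 36 genes) and brain (right, 37 genes, 8 of 21 labels). Squares are the control library and circles single CKO libraries, in ascending order. Lines are 95% counting intervals, and a 0 marks a library with no UMI of these genes. Retinal libraries with fewer than 10 nuclei of a type are not drawn.

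The share of nuclei carrying several of these transcripts gives the same picture per nucleus. In Müller glia 6.72% of 402 control nuclei and 21.4% of 2670 CKO nuclei held at least 3 UMIs of the listed genes, at median depths of 3171.5 and 3394 UMIs. After each nucleus was thinned to 1000 UMIs, 0 of 369 control nuclei and 32 of 2247 CKO nuclei (1.42%) did, and 22.5% and 32.5% held at least 1. In rods, a type with few such transcripts, the thinned shares with at least 1 were 7.25% and 7.44%, at median depths of 961 and 1104 UMIs, and unthinned 8.82% and 10.5%. Nuclei of a library are not replicates, so these shares carry no test.

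Gene by gene, none of the members passed the test in any retinal type. With edgeR on UMIs summed per library, 0 of the listed genes were called at an adjusted p of 0.05 in the 10 types other than immune nuclei, where 0.000720% of 138835 gene and type pairs were called higher and 0.00216% lower. In Müller glia 24 members had enough UMIs to be fitted. None was called higher (0.00% of 14172 genes) or lower (0.00706%), and 5 had an unadjusted p under 0.05 with a higher level, where 4.02% of all genes did, and 0 with a lower one, where 2.14% did. DESeq2, which tested 11 of the 24, called 1 higher, Ddx60, where 1.08% of 8676 genes were called, and none lower, where 0.138% were. The test takes the spread among CKO libraries to hold for the control too. Of the 5 members under that unadjusted p, Gbp2 and Ifi35 reached the UMI minimum through the CKO libraries. So their share cannot be compared with that of all genes as evidence.

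Counted by separation rather than by test, 8 of the 24 members fitted in Müller glia were higher in all 10 CKO libraries than in the control, where 8.86% of all genes fitted were. None was lower in all 10, where 5.53% were. The 8 are Ifih1, Ddx60, Irf7, Ifit2, Eif2ak2, Ifi35, Herc6 and Gbp2. Every comparison shares the 1 control, and Irf7, Ifit2, Ifi35 and Gbp2 had 1 to 4 control UMIs and reached the UMI minimum through the CKO libraries, so the 2 shares cannot be compared as evidence. The median log2 fold change over the 24 was 0.63 and 18 lay above 0, beside a median of 0.02 and 52.5% above 0 over all genes. Genes that reached the minimum through the CKO libraries are among the 24. So neither this median nor this count can be compared with all genes as evidence.

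Among the sensors, Ddx60 stood out. Ddx60, a helicase that supports antiviral signaling, was at 27.8 CPM in the control and at 47.2 (CKO 2), 72.1 and 85.2 CPM (CKO 1) at the lowest, median and highest of the CKO libraries. The groups did not overlap. Its log2 fold change was 1.18 (p = 0.00179, adjusted p = 0.568) with edgeR and 1.21 (adjusted p = 0.0358) with DESeq2. Within the control's own batch it was 1.28. Ifih1, which encodes the double-stranded RNA sensor MDA5, was at 11.9 CPM against 13.9, 18.8 and 29.3 CPM (log2 fold change 0.38). Ddx58, which encodes the related sensor RIG-I, was at 24.5 CPM against 10.7, 24.3 and 29.5 CPM, with 5 of 10 CKO libraries above the control. Dhx58, with 1 control and 14 CKO UMIs, and Zbp1, with 1 and 4, were under the minimum of 30 UMIs for a fit.

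Of the transcription factors, Irf7, which drives transcription of type I interferon genes, was at 1.32 CPM (2 UMIs) in the control and at 1.93, 4.70 and 10.7 CPM in the CKO libraries. The pooled ratio was 3.36 with a counting interval of 0.889 to 28.4. Stat2 was at 34.4 CPM against 16.0, 32.7 and 43.8 CPM, with 4 of 10 CKO libraries above and a log2 fold change of −0.24, which is 0.05 within the control's batch. Irf9, a DNA-binding partner of STAT2, was at 8.60 CPM against a CKO median of 10.9 CPM, with 8 of 10 above. Irf1, a rapidly induced activator, was at 9.26 CPM against 3.98, 13.4 and 30.4 CPM. The groups overlapped for Stat2, Irf9 and Irf1.

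The antiviral effectors and the ISG15 system held most of the remaining separated genes, named here after their values were seen. Eif2ak2 encodes PKR, the kinase that stops translation on sensing double-stranded RNA. It was at 16.5 CPM in the control and 22.2, 31.1 and 41.6 CPM in the CKO libraries (log2 fold change 0.88, p = 0.0413, adjusted p = 0.789). Herc6, which in mice encodes the ligase that attaches the ubiquitin-like protein ISG15 to targets, was at 15.2 CPM against 25.9, 39.9 and 58.6 CPM (log2 fold change 1.30, p = 0.0111, adjusted p = 0.710). For each, all 10 CKO libraries lay above the control. Isg15 itself had 1 control UMI and 7 CKO UMIs.

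Ifi35, Ifit2 and Gbp2, with few control UMIs, also separated the groups, with wide intervals. Ifi35, an interferon-induced adaptor, was at 2.65 CPM (4 UMIs) against 4.75, 8.42 and 21.9 CPM (CKO 3), a pooled ratio of 3.57 (1.36 to 13.3), with p = 0.0192 and adjusted p = 0.734. Ifit2, which binds viral RNA, was at 0.662 CPM (1 UMI) against 1.07, 4.19 and 6.15 CPM, a pooled ratio of 5.78 (0.989 to 233). Gbp2, a guanylate-binding GTPase that attacks the membranes of intracellular pathogens, was at 0.662 CPM (1 UMI) against 1.63, 4.33 and 12.2 CPM (CKO 1), a pooled ratio of 7.55 (1.31 to 303), with p = 0.0342 and adjusted p = 0.789. Each comparison with a CKO library uses the same few control UMIs, so the 10 are not independent, and the interval for Ifit2 includes 1.

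Next come the GTPases and the ADP-ribosylation genes. All 3 fitted GTPases had a log2 fold change above 0. Each reached the minimum of 30 UMIs through the CKO libraries, so their shared direction is not evidence. The 4 counted GTPases, which add Iigp1, summed to 7.28 CPM (11 UMIs) in the control and 25.7 CPM in the pooled CKO libraries. Gbp7 was at 4.63 CPM against 2.15 (CKO 2), 12.1 and 38.0 CPM (CKO 1), above the control in 9 of 10, and Gbp3 at 1.99 CPM against 1.23, 5.18 and 10.0 CPM, also in 9 of 10. The ADP-ribosylation genes, whose products modify proteins during antiviral signaling, were at 37.1 and 46.4 CPM in sum. Parp9 and its partner Dtx3l had 3 of 10 CKO libraries above the control, and Parp14 had 9 of 10, at 11.9 CPM against 5.98, 19.0 and 29.7 CPM.

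**Figure D2:**
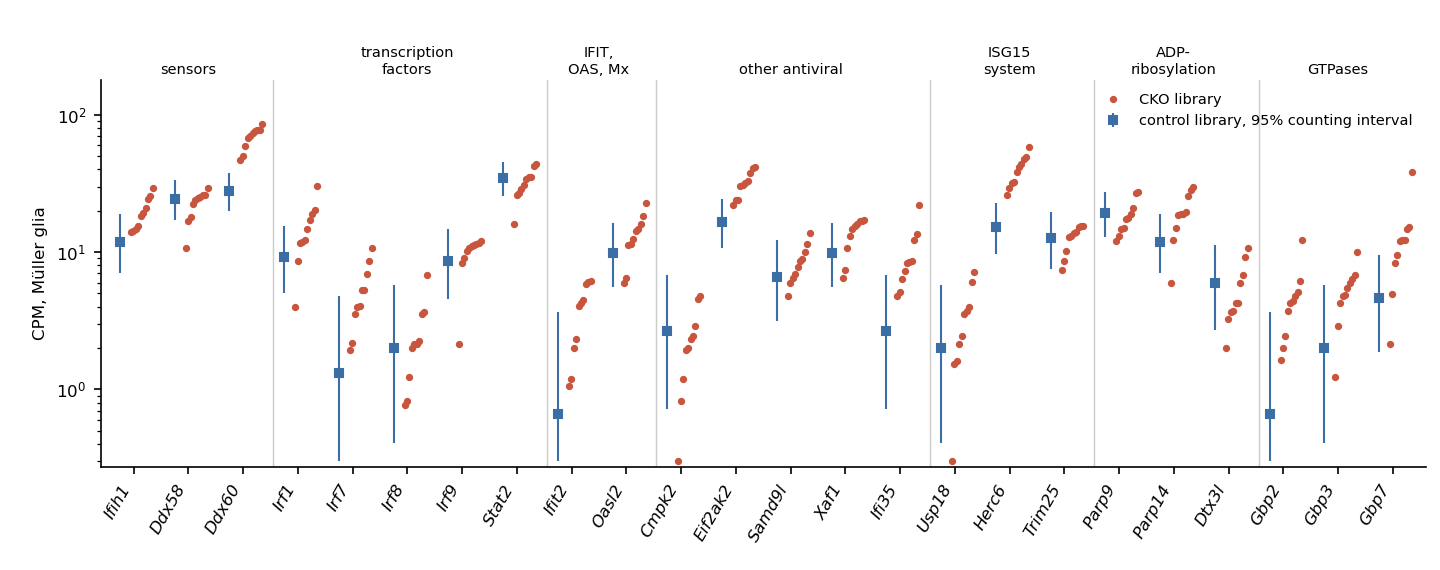
Level of each of the 24 interferon response genes fitted in Müller glia, in CPM on a log scale, by role group. Squares are the control library with its 95% counting interval. Circles are the 10 CKO libraries with at least 10 Müller glia, in ascending order. Values and interval ends under 0.3 are drawn at 0.3.

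Marker levels in Müller glia moved with genotype for 1 list. The 11 monocyte markers summed to 47.6 CPM in the control and 108 to 388 CPM in the CKO libraries, and nearly all of it was Fn1, at 38.4 CPM and 93.8 to 339 CPM. In the control 5 of the 11 were at 0, namely Ly6c2, Ccr2, Plac8, Ace and Chil3. Microglial markers were at 51.6 CPM in the control and 27.1 to 77.7 CPM in the CKO libraries, and macrophage markers at 136 and 103 to 224 CPM, mostly Apoe. Their part in the Müller glial levels was not tested.

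In astrocytes and amacrine cells the same genes could be followed less closely. In GABAergic amacrine cells edgeR called none, and the share of all gene and type pairs called is given above. Oasl2 had the highest log2 fold change of the members fitted there, 2.59 (edgeR unadjusted p = 0.0431, adjusted p = 0.999998). edgeR called none of the 9 members fitted in astrocytes, and 0 had an unadjusted p under 0.05 with a higher level (3.67% of all genes) or a lower one (2.40%). All 9 had a log2 fold change above 0, but 5 had no control UMI, and their median of 5.19 becomes −0.03 with those genes at the bound that 3 control UMIs would give, beside 0.38 over all genes. Ddx60 was at 0 in the control, and at 0, 73.4 and 213 CPM in 8 CKO libraries. The 8 pericyte markers in astrocytes were at 95.9 CPM in the control and 312 to 808 CPM in the CKO libraries, mostly Rgs5, with 7 of 8 at 0 in the control. The 10 macrophage markers were at 64.0 and 0 to 804 CPM, mostly Apoe. Their part was not tested. In glycinergic amacrine cells edgeR called 0 of 15 members higher (0.00613% of all genes) or lower (0.00%), and DESeq2, which tested 7 of them, called 0 (1.23% of genes higher and 0.0837% lower). There 1 of 15, Trim25, had an unadjusted p under 0.05, where 2.35% of all genes did with a higher level. Trim25, a ligase that activates RIG-I, was at 2.54 CPM against 4.05, 6.52 and 9.31 CPM, above in 10 of 10 (log2 fold change 1.16, adjusted p = 1.00).

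In retinal immune nuclei 22 members could be fitted and again none was called by edgeR, higher or lower (0.00% of 10225 genes in each direction). At an unadjusted p under 0.05 there were 4 higher, where 2.32% of genes were, and 0 lower, where 1.54% were, and DESeq2 called 0 and had 1 at that level, Irf1. The 4 are Irf1, Trim25, Dtx3l and Samd9l, all with 0 control UMIs. Against a floor of 3 control UMIs, the pooled CKO levels were at least 1.27-fold (Irf1), 1.18-fold (Samd9l), 1.08-fold (Trim25) and 0.807-fold (Dtx3l) those of the control, so for Dtx3l a higher level does not follow. In all, 6 of 22 lay above the control in every CKO library, where 6.47% of genes did, and 0 below, where 8.13% did. But 4 of those 6 are the genes at 0 in the control, which any CKO UMI exceeds, so the 2 shares cannot be compared as evidence. The other 2 are Stat2 and Parp9. Over the 22 the median log2 fold change was 1.76, or 0.30 with the 9 genes at 0 in the control set to their bound, beside 0.07 over all genes.

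The abundant members of immune nuclei behaved differently from one another. Irf8, which specifies microglia and other myeloid cells, was at 157 CPM (18 UMIs) in the control and 98.1 (CKO 11), 185 and 558 CPM (CKO 4), with 6 of 11 CKO libraries above. Its log2 fold change was 0.36, and −0.10 within the control's batch, so its direction is not settled. Stat2 was at 26.2 CPM (3 UMIs) against 38.9, 69.7 and 120 CPM, above in 11 of 11, with a pooled ratio of 2.98 (1.00 to 14.6) and p = 0.0952. Parp14, a mono-ADP-ribosyltransferase, was at 43.7 CPM (5 UMIs) against 7.19, 75.4 and 118 CPM, above in 8 of 11. Eif2ak2 was at 26.2 CPM (3 UMIs) against 18.9, 57.1 and 93.0 CPM, a pooled ratio of 2.39 (0.804 to 11.7).

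What cells the immune label holds also differed between genotypes. The 10 microglial markers were at 2306 CPM in the control, with Tmem119 at 0. In the CKO libraries their median was 1252 CPM, and only CKO 4, at 6530 CPM, was above the control. The 10 macrophage markers were at 87.4 and 140 to 2045 CPM, and the 11 dendritic cell markers at 0 and 54.5 to 465 CPM, led by Cd74, each above the control in 11 of 11. The 8 bipolar cell markers were at 5067 CPM in the control and 23.2 to 2712 CPM in the CKO libraries. A different mix of cells and a different level in each cell cannot be told apart in these sums.

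Clustering the 720 immune nuclei without the interferon genes or their pathway genes gave 13 clusters whose summed level ranged widely. The 4 highest held no control nucleus, but neither did the largest cluster, of 99 nuclei at 826 CPM, nor a T cell-like cluster of 18 at 1295 CPM. A monocyte-like cluster of 68 nuclei held 4881 CPM (4349 to 5460), a dendritic cell-like cluster of 28 nuclei 4185 CPM, a B cell-like cluster of 17 nuclei 3060 CPM and a macrophage-like cluster of 92 nuclei 1943 CPM. Irf8 was 1 part of these sums, at 415 CPM in the monocyte-like and 854 CPM in the dendritic cell-like cluster. Depth differed too, with a median of 683 UMIs a nucleus in the monocyte-like cluster and 7740 in a bipolar-like cluster. The monocyte-like cluster was led by Parp14 at 734 CPM, and the B cell-like cluster held Samd9l, a cytoplasmic restriction factor, at 519 CPM.

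At the other end stood the bipolar-like cluster of 71 nuclei, 8 of them control, at 405 CPM, and 2 clusters given no name, of 77 and 55 nuclei, at 487 and 360 CPM. The microglia-like cluster of 95 nuclei held 1653 CPM (1456 to 1869), led by Irf8 at 538 CPM. It alone held more than 10 control nuclei. Its 13 control nuclei held 926 CPM (506 to 1554, 14 UMIs), and 3 CKO libraries with at least 10 such nuclei held 1327 (CKO 4), 2344 and 3495 CPM. The first of these lies within the control's interval. So do several CKO libraries with fewer nuclei, among them CKO 11 at 960 CPM (19 UMIs), CKO 8 at 1055 CPM (26 UMIs) and CKO 6 at 1170 CPM. From 8 nuclei or fewer, CKO 5 (1564 CPM), CKO 9 (2116 CPM), CKO 10 (2197 CPM) and CKO 2 (2478 CPM) lie above that interval. All 11 CKO libraries lie above the control's 926 CPM. In the remaining clusters together the control held 352 CPM and the 11 CKO libraries 369, 782 and 2076 CPM at the lowest, median and highest. CKO 4 gave 17 nuclei of the microglia-like cluster, 20 of the 38 in a cluster led by cell division genes, and all 8 of the smallest cluster.

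**Figure D3:**
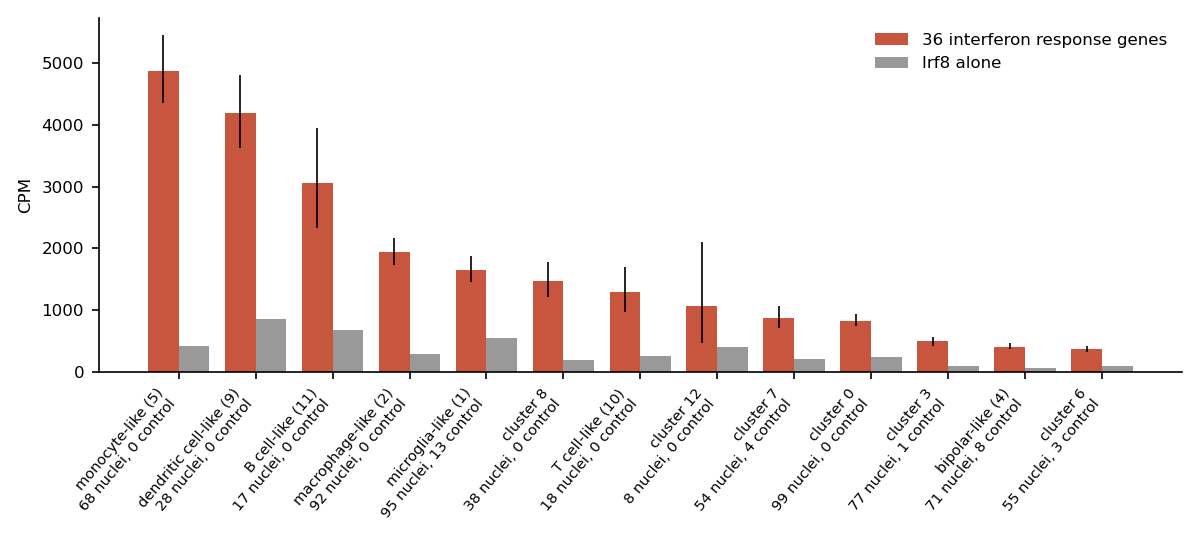
Summed level of the 36 interferon response genes compared in the retina (red, with 95% counting interval) and of Irf8 alone (grey) in each cluster of retinal immune nuclei, in CPM. Clusters were made without these genes. Labels give the name from marker genes where 1 could be given, the number of nuclei and how many are from the control.

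In brain ECs, the cells targeted by Cre, the summed level was 990 CPM (964 to 1016) in 2475 control nuclei and 1215 CPM in 2944 CKO nuclei, a ratio of 1.23 (1.19 to 1.27). With 1 library for each genotype no test was possible. The median ratio of all 13154 genes was 1.10 (log2 0.14), so part of this difference is shared by the whole profile. Of 35 members with at least 20 UMIs, 5 were at least 2-fold higher, where 11.2% of all genes were, and 0 at least 2-fold lower, where 5.79% were. The share past 2-fold is near that of all genes. Ifit1, Ifit2, Ifit3 and Cmpk2, among the 5, reached the UMI minimum through the CKO library. So these shares cannot be compared as evidence. In finer terms 18 of 35 had a counting interval above 1, where 36.0% of genes did, and 0 below 1, where 19.0% did. The median ratio of the 35 was 1.26, or 1.17 after TMM scaling, beside 1.10 and 1.02 over all genes. Ifit1, Ifit2, Ifit3 and Cmpk2 are among the 35. So these interval counts and medians cannot be compared with all genes as evidence either.

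Median ratios by role group follow, from the highest to the lowest. The IFIT, OAS and Mx effectors, which bind or degrade foreign RNA, had a median ratio of 2.32 over 5 genes, the GTPases 1.66 over 4, the other antiviral effectors 1.26 over 10, the sensors 1.15 over 4, the transcription factors 1.10 over 5, the ISG15 system 1.04 over 4 and the ADP-ribosylation genes 0.947 over 3. In the highest group Ifit1, Ifit2 and Ifit3 had 12, 19 and 7 control UMIs and reached the UMI minimum through the CKO library. So the rank of that group is not evidence. These medians hide spread within groups. Parp14, of the lowest group, was at 35.2 and 60.0 CPM (1.71, 1.44 to 2.03), and in the highest group the 3 Ifit genes stood above Oasl2, at 18.4 and 25.0 CPM (1.35, 1.06 to 1.74), and Oas2, at 2.24 and 2.19 CPM (0.977, 0.434 to 2.23). The IFIT, OAS and Mx genes were also the scarcest group. They summed to 27.2 CPM in the control and 45.7 CPM in the CKO library.

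All 5 genes past 2-fold in ECs had few UMIs in the control. Ifit1, whose protein binds viral RNA that lacks a methylated cap, was at 2.07 CPM from 12 control UMIs and 7.30 CPM from 50 CKO UMIs, a ratio of 3.53 (1.85 to 7.28). Ifit3, its binding partner, was at 1.21 and 3.65 CPM, a ratio of 3.02 (1.27 to 8.28), and Ifit2 at 3.27 and 7.59 CPM, a ratio of 2.32 (1.35 to 4.15). The 3 are neighbouring genes of 1 family and shared this direction.

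The other 2 are Cmpk2, a mitochondrial nucleotide kinase, and Iigp1, a GTPase that acts on pathogen vacuoles. Cmpk2 was at 2.93 CPM in the control and 7.15 CPM in the CKO library, a ratio of 2.44 (1.38 to 4.52), or 6.19 as a mean over nuclei. Iigp1 was at 5.69 and 13.6 CPM, a ratio of 2.39 (1.59 to 3.67). No interval for these 5 genes reached down to 1. But Ifit1, Ifit2, Ifit3 and Cmpk2 reached the UMI minimum through the CKO library, where they were higher. So their shared direction is not evidence. Iigp1, with 33 control UMIs, reached it in the control alone.

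The 3 members with most UMIs had ratios nearer 1 than these 5. Trim25 and Samd9l fell below 1 as means over nuclei, with the values given in the last section. Trim25, the member with most UMIs in ECs, was at 123 CPM in the control and 135 CPM in the CKO library (ratio 1.10, 0.992 to 1.21). Samd9l was at 90.8 and 101 CPM (1.11, 0.987 to 1.24), and Gbp7 at 77.9 and 97.9 CPM (1.26, 1.11 to 1.42). Between these and the scarce genes lay Stat2, at 23.3 and 44.4 CPM (1.91, 1.55 to 2.35), Bst2, which tethers budding virus to the cell surface, at 34.3 and 64.4 CPM (1.88, 1.58 to 2.23), and Gbp3 at 31.4 and 54.0 CPM (1.72, 1.44 to 2.07).

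Some ratios lay below 1. The lowest ratios were those of Irf8 (0.702, 0.432 to 1.13), Isg20, an exonuclease of foreign RNA (0.726, 0.403 to 1.30), and Irf7 (0.776, 0.528 to 1.14), each with an interval that includes 1. The 2 genes that led in Müller glia were near 1 in ECs: Ddx60 at 27.6 and 32.0 CPM (1.16, 0.941 to 1.43) and Herc6 at 37.6 and 31.5 CPM (0.839, 0.692 to 1.02). Whether the tissues differ was not tested.

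**Figure D4:**
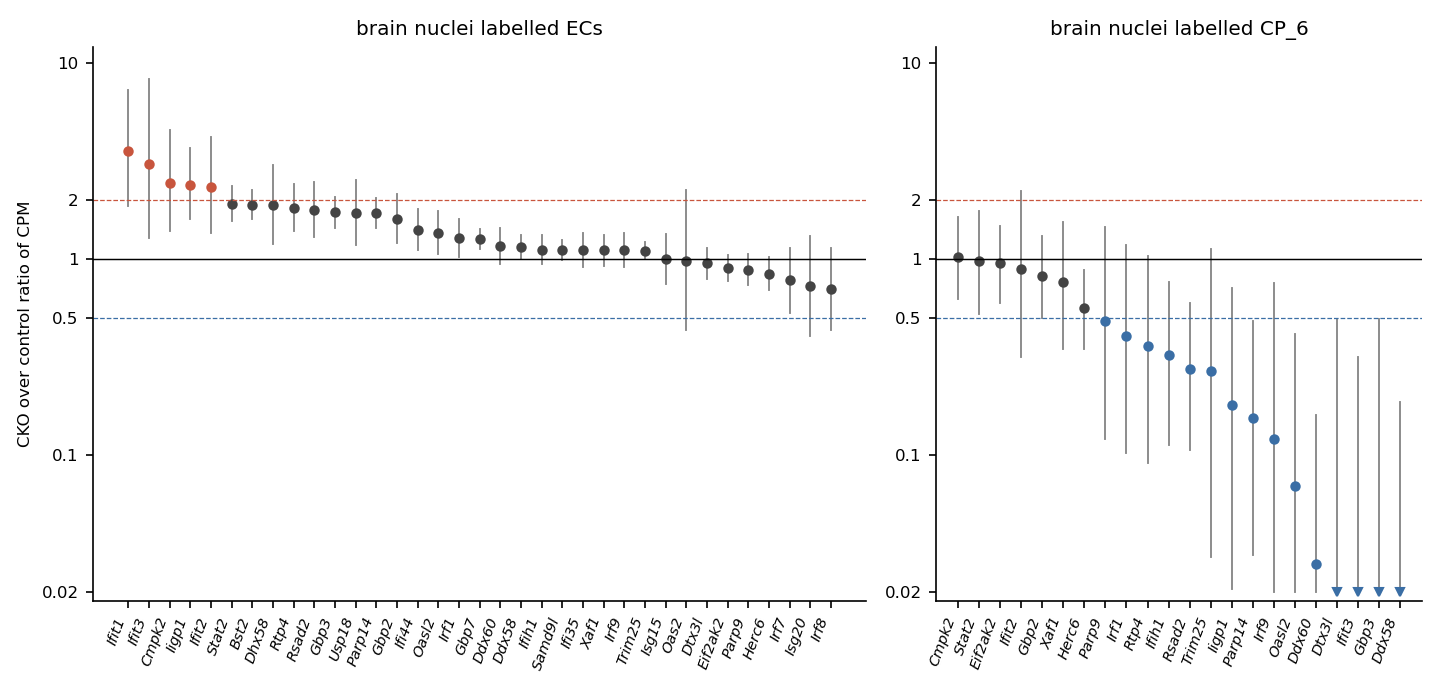
Ratio of CKO to control level for each interferon response gene with at least 20 UMIs over both brain libraries, in nuclei labelled ECs (35 genes) and CP_6 (22 genes), on a log scale. Lines are exact 95% counting intervals. Red marks ratios of at least 2 and blue ratios of at most 0.5. Triangles mark genes with 0 CKO UMIs, and values and interval ends under 0.02 are drawn at 0.02.

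In ECs, median depth was 1347 UMIs for control and 1491 for CKO nuclei. Thinned to 1000 UMIs, 7.48% of 1470 control and 12.3% of 1889 CKO nuclei held at least 3 UMIs of these genes, against 29.5% and 37.7% unthinned. In excitatory neurons labelled Glut_0, at median depths of 5004 and 2314 UMIs, 0 of 1844 and 0 of 2379 thinned nuclei did, and 0.142% and 0.0322% unthinned. The 9 endothelial markers were at 10914 and 9175 CPM and the 8 pericyte markers at 8390 and 7127 CPM, mostly Rgs5. The 10 microglial markers were at 127 and 110 CPM. The largest difference by ratio among these lists was in the 11 monocyte markers, at 1899 and 565 CPM, of which Fn1 was 1850 and 503. Their part in the EC ratios was not tested. Tgfbr1 in ECs was at 69.1 and 62.9 CPM (0.910, 0.792 to 1.05).

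The opposite direction was seen in nuclei deposited under the label CP_6, which the files do not spell out. The summed level was 324 CPM (305 to 344) in 1092 control nuclei and 138 CPM in 723 CKO nuclei, a ratio of 0.425 (0.362 to 0.496). Of 22 members with at least 20 UMIs, 15 were at least 2-fold lower, where 5.42% of all genes were, and 0 at least 2-fold higher, where 3.82% were. The median ratio of the 22 was 0.297, beside 1.01 over all genes. The 15 reached the minimum mainly through the control, where they were higher. So neither their share nor the median can be compared with all genes as evidence. The genes that follow were chosen after their values were seen, and span sensing, RNA binding and protein modification.

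In CP_6 Ddx60 had 87 control UMIs and 1 CKO UMI, a ratio of 0.0278 (0.000695 to 0.159), and Oasl2, a member of the oligoadenylate synthetase family, 35 and 1, a ratio of 0.0690 (0.00170 to 0.411). Ddx58 had 50 and 0 UMIs, at least 6.90-fold lower against a floor of 3 CKO UMIs, and Ifit3 30 and 0, at least 4.14-fold lower. Parp14 had 47 and 3, a ratio of 0.154 (0.0307 to 0.479). Other members had ratios near 1, among them Stat2 at 12.7 and 12.4 CPM (0.977, 0.522 to 1.75) and Eif2ak2 at 22.4 and 21.2 CPM (0.946, 0.594 to 1.47).

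In CP_6 the control level was carried by few nuclei. The 11 control nuclei with most UMIs of these genes, 1% of them, held 38.6% of the sum, and the highest held 32 UMIs. In the CKO library the top 8 nuclei held 22.3%. Median depth was 1307 UMIs in control and 869 in CKO nuclei, and thinned to 1000 UMIs, 15.5% of 690 and 12.2% of 329 nuclei held at least 1 UMI, against 33.4% and 17.3% unthinned. The 10 macrophage markers were at 1128 and 1081 CPM, mostly Apoe, the 10 microglial markers at 99.98 and 108 CPM and the 9 endothelial markers at 86.3 and 83.4 CPM. Other lists differed more, with the 6 oligodendrocyte markers at 416 and 592 CPM, the 10 B cell markers at 186 and 256 CPM and the 11 monocyte markers at 57.6 and 40.2 CPM. Their part in the CP_6 ratios was not tested.

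The other brain labels varied in direction and in nuclei. A second cluster, CP_8, held 156 and 113 CPM (ratio 0.727, 0.564 to 0.928), with 4 of 7 members at least 2-fold lower, where 9.09% of genes were, and 0 higher, where 5.58% were. Parp9, 1 of the 4, reached the minimum through its 21 control UMIs alone. Pericytes held 821 and 760 CPM from 201 and 22 nuclei, vSMCs 828 and 844 CPM, cells labelled glia 574 and 599 CPM and astrocytes 266 and 285 CPM, each with a ratio interval that includes 1. In vSMCs 2 of 25 members, Iigp1 and Gbp3, were at least 2-fold higher (4.70% of all genes) and 2, Stat2 and Ifi35, lower (8.82%). In glia 3 of 19, Ifi35, Gbp2 and Oasl2, were at least 2-fold higher (10.2%) and 0 lower (11.1%). In astrocytes 1 of 4, Stat2, was at least 2-fold higher (8.81%) and 0 lower (15.3%). Oligodendrocytes held 170 and 79.6 CPM (0.468, 0.346 to 0.624), with 1 of 3 members, Ddx60, at least 2-fold lower where 29.6% of all genes were, and 0 higher, where 3.77% were.

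Neurons of the brain held too few of these transcripts to follow more than 1 or 2 members a label. Cmpk2 in Glut_1 was at least 2-fold lower (11.9% of all genes) and 0 of 2 were higher (2.28%), and Stat2 in Glut_19 was lower (4.44%) with 0 of 1 higher (3.42%). No member was past 2-fold in GABA_9 (3.66% of genes higher and 5.78% lower), Glut_0 (3.27% and 10.6%), Glut_11 (3.50% and 12.2%), Glut_14 (3.52% and 5.91%), Glut_17 (1.82% and 11.5%), Glut_21 (5.45% and 4.38%) or Glut_5 (18.8% and 17.8%).

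Nuclei labelled microglia were 129 in the control and 11 in the CKO brain library, with 249 and 5 UMIs of the listed genes, or 3115 and 342 CPM. By the ratio of the counted UMIs, 4 of 4 members that reached the minimum were past 2-fold lower, where 52.1% of genes were, and 0 higher, where 19.0% were. All 4 reached it through the control alone, and only the Ddx60 bound is past 2-fold. Ddx60 had 75 UMIs and 0, at least 4.58-fold lower, Herc6 26 and 0, at least 1.59-fold, Parp14 23 and 0, at least 1.40-fold, and Irf8 30 and 1, a ratio of 0.182 (0.00446 to 1.09). The microglial markers were also lower there, at 8333 and 1981 CPM, with Tmem119 and Gpr34 at 0 in the CKO library. The 10 macrophage markers were at 12962 and 888 CPM, led by F13a1 at 5906 and 547 CPM, while the 7 neuronal markers were at 613 and 2733 CPM. A different mix of cells under this label and a different level in each cell cannot be told apart.

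Upstream of these genes, 58 ligands, receptors, kinases, adaptors and inhibitors of the interferon pathway were listed, and 18 of them, mostly ligand genes, are in neither gene table. The retinal table holds 38, of which 12 to 27 had enough UMIs to be fitted in a type. edgeR called 0 of these in any of the 11 retinal types. DESeq2 called 3, each of them Stat3, in Müller glia, rod bipolar cells and rods, where it called 94 of 8676, 88 of 12060 and 215 of 14217 genes higher. Stat3, which transmits interleukin-6 family signals and is also activated by interferon, was at 65.5 CPM in control Müller glia and 104, 145 and 223 CPM in the CKO libraries, above in 10 of 10. Its log2 fold change was 1.27 (p = 0.00630, adjusted p = 0.661) with edgeR and 1.28 (adjusted p = 0.0446) with DESeq2. In rods it was at 58.0 CPM against 142, 204 and 375 CPM. Its log2 fold change in rods was 2.19 with edgeR (unadjusted p = 0.00223, not called after adjustment) and 2.20 with DESeq2 (adjusted p = 0.000630). In every other type the edgeR log2 fold change of Stat3 was also above 0. It was 2.18 in horizontal cells, 1.58 in rod bipolar cells, 0.60 in cone bipolar cells and 0.27 in immune nuclei. At an unadjusted p under 0.05, edgeR had 1 pathway gene in Müller glia, Stat3, where 4.02% of all genes were higher and 2.14% lower. In immune nuclei it had 2, Ikbke and Ifnar1, where 2.32% were higher and 1.54% lower. Ikbke had 0 control UMIs there. Against a floor of 3 control UMIs, its pooled CKO level was at least 1.495-fold that of the control.

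The receptors did not follow one pattern. For type I interferon, Ifnar1 in Müller glia was at 16.5 CPM against 7.97, 22.3 and 35.6 CPM, and Ifnar2 at 27.1 CPM against 7.71, 16.7 and 36.7 CPM, so the groups overlapped. In immune nuclei Ifnar1 was at 8.74 CPM (1 UMI) against 42.5, 73.2 and 157 CPM, a pooled ratio of 8.79 (1.56 to 349) with p = 0.0140. In ECs, where receptors are abundant, Ifnar1 was at 212 and 190 CPM (0.895, 0.827 to 0.968) and Ifnar2 at 335 and 286 CPM (0.854, 0.801 to 0.909).

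For interferon gamma, Ifngr1 was at 12.6 CPM in control Müller glia against 12.9, 17.7 and 24.5 CPM, and at 81.2 and 80.7 CPM in ECs (0.994, 0.878 to 1.13). Ifngr2 was at 5.96 CPM against 0, 4.39 and 9.50 CPM in Müller glia and at 23.3 and 20.6 CPM in ECs (0.884, 0.693 to 1.13). The ligand gene Ifnb1 is in neither gene table and was not analysed here. Among 32 pathway genes with enough UMIs in ECs, 0 were 2-fold higher, where 11.2% of all genes were, and 0 were 2-fold lower, where 5.79% were. Tgfbr1 in Müller glia was at 97.3 CPM against 55.8, 81.5 and 89.7 CPM, below the control in 10 of 10 (log2 fold change −0.40, p = 0.112).

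The promoters of some listed genes hold a known interferon motif. The interferon-stimulated response element, bound by a complex that includes STAT2 and IRF9, has the core GAAA, any 2 bases, GAAA. It was searched on both strands in RefSeq promoters (GRCm38.p6, 250 bases before to 50 after the start), which hold 29 of the 39 genes. The core was present in 14 of the 29 (48.3%) and in 3.99% of 27025 genes with a promoter there. Counted by promoter, it was in 14 of the 36 that belong to listed genes (38.9%) and in 3.44% of all 32851. With a C added at the end, the counts were 12 of 29 (41.4%) and 0.944% of genes. The gamma-activated site (TTC, any 3 bases, GAA) was in 9 of 29 (31.0%) and in 9.55% of genes. A match describes the letters and does not show binding.

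Windows of 120 bases are given for genes that hold the core and separated the groups in Müller glia (Ddx60, Eif2ak2 and Gbp2; Ifih1 does both too and is not shown) or had the largest ratios in brain ECs (Ifit1, Ifit3), to let the spacing be compared. Capitals mark the core or its reverse complement. Ddx60, Ifit1 and Ifit3 each hold 2 copies, and Eif2ak2 and Gbp2 1 each. Windows read 5′ to 3′ on the gene's strand, from chr8:61927996-61928115 (plus) for Ddx60, chr17:78882523-78882642 (minus) for Eif2ak2, chr3:142620549-142620668 (plus) for Gbp2, chr19:34640739-34640858 (plus) for Ifit1 and chr19:34583335-34583454 (plus) for Ifit3, all GRCm38.p6.
Ddx60: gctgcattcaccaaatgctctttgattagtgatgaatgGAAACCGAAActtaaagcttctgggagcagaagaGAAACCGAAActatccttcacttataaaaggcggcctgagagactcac
Eif2ak2: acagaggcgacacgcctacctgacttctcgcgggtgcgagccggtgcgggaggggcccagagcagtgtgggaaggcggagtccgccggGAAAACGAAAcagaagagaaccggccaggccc
Gbp2: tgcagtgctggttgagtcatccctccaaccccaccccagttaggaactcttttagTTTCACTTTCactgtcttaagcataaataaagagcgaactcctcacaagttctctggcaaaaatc
Ifit1: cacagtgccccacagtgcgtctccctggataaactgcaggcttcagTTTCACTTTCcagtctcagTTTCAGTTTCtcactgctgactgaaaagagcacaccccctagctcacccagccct
Ifit3: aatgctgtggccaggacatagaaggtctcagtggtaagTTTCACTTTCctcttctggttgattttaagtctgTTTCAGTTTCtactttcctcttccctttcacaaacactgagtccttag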

How the data were processed

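Single nuclei from 12 retinal and 2 brain vascular fragment libraries were profiled with PIPseq v4.0 PLUS (8 retinal and both brain libraries) or v5.0 (4 retinal). According to the study's methods, reads were counted with PIPseeker 3.3.0 (a GRCm39 reference), ambient RNA was removed with CellBender 0.3.2 and doublets with SOLO in scVI-tools 1.2.2-post2, and manual curation removed further mixed nuclei, and clusters with multiple nuclei from CKO 4 and CKO 5. The submitters' processing notes name mm10 and Seurat. The deposited matrices hold counts (UMIs) per gene and nucleus, and the authors' cell type labels were used as deposited.

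UMIs were summed for each label and library and divided by all UMIs of those nuclei (CPM). Intervals are exact Poisson or conditional binomial at 95%. In the retina, genes with at least 30 UMIs were fitted per type with edgeR 4.0.16 (quasi-likelihood, TMM, kit version as covariate; R 4.3.3), in libraries with at least 10 nuclei of the type, with Benjamini-Hochberg adjustment over all genes and a threshold of 0.05. DESeq2 1.42.0 was the alternative. The main fits adjusted for kit version and not for batch. Only CKO 1, CKO 2 and CKO 3 share the control's batch label, and the other CKO libraries come from batches with no control. So batch and genotype are partly mixed in the main fits. In the brain, with 1 library for each genotype, ratios of at least 2 or at most 0.5 were counted among genes with at least 20 UMIs. A group at 0 was set to a floor of 3 UMIs over the group. Leiden clusters of the immune nuclei came from leidenalg 0.10.2 in scanpy 1.11.5 (2000 variable genes, 20 components, 15 neighbors, resolution 1) without the listed and pathway genes, and a cluster was named where at least 3 markers of 1 list were raised 2-fold, 1 of them among its 10 leading genes. Scripts ran in Python 3.11.15 with pandas 2.3.3, scipy 1.17.1, matplotlib 3.10.9 and numpy 2.4.6, and the retinal test was tested on simulated data, where it missed most 2-fold changes, so a gene not called may still differ.

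Retinal depth ran from 90449 UMIs (CKO 4) to 55803724 (CKO 5), with 30989702 in the control, and the brain libraries held 49798325 (control) and 31033373 (CKO), so genes under about 1 CPM in small types rest on single UMIs. Genes described with values in every library are members past a threshold, the 3 with most UMIs in each type, Tgfbr1, pathway genes past a threshold, and the interferon receptors. Others named were chosen after their values were seen. The members and lists were chosen with earlier results of these data known. Alternatives were the tool, the filter, the covariate, leaving out CKO 4 and 5, the control's batch alone, deeper nuclei, TMM scaling, other minimums, folds and resolutions, means over nuclei, sums without the 3 leading members and a longer motif. The libraries are labelled as separate repeats, and the study's reporting checklist calls its replicates biological, but the mice in each library are not listed, so p-values measure the spread between these libraries.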

Additional observations from a re-analysis of the deposited data

Results flagged for a closer look

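In 4 of 19 sets of values from the CKO libraries, 1 library lay further from its nearest neighbour than a Dixon test allows at the 95% level, and chance alone marks about 1 in 20 such groups. In rod bipolar cells the summed level of the interferon response genes was 39.6 CPM in CKO 6, where the other 9 libraries held 54.4 to 69.4 CPM. In Müller glia Ifi35 was at 21.9 CPM in CKO 3, where the others held 4.75 to 13.5 CPM. In the same cells CKO 1 held 12.2 CPM of Gbp2 and 38.0 CPM of Gbp7, where the others held 1.63 to 6.17 CPM and 2.15 to 15.1 CPM.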

How the results depend on the processing

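The 1 control retina and the single brain library of each genotype limit every comparison, and members with few UMIs were not compared. No paired analysis was possible because the control libraries have no number shared with the CKO libraries. Of the results tried under other settings, 53 main values and 88 values of single genes kept their direction and side of the threshold. For the rest the cause was not tested unless the setting itself gives it. With DESeq2, 1 member was called in the retinal types other than immune nuclei (0 with edgeR) and 3 pathway genes (0). Ddx60 in Müller glia then had a log2 fold change of 1.21 and Stat3 1.28. In immune nuclei, members above 0 numbered 31 with no filter, which fits more genes, and 5 in the control's batch alone, which fits fewer (20 before). Within that batch Stat2 in Müller glia was at 0.05 (0.0546; −0.24 before) and Irf8 in immune nuclei at −0.10 (0.36). In brain ECs, 14 members were past a fold of 1.5 and 8 past 2-fold as a mean over nuclei (5 before), where Cmpk2 was at 6.19, Trim25 at 0.987 and Samd9l at 0.932. Over the 20 other brain labels, 6 were higher, and 2 with TMM scaling, 0 with a minimum of 50 UMIs, 11 at a fold of 1.5 and 3 in nuclei with at least 1000 UMIs. Of 28 lower, 8 remained countable at the minimum of 50 UMIs. A resolution of 2 gave 20 immune clusters, with a highest level of 6404 CPM, and a resolution of 0.5 gave 2833 CPM.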
